A study of Mus musculus with 24 samples.

Results

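Fasted livers that lacked both Tsc1 and Cpt2 in hepatocytes (DKO) were compared with control livers across all measured genes. The rule took the 4 DKO columns and the 4 control columns of the deposited read-count table, which makes 8 of the 24 libraries in the series. All animals were male C57BL/6 mice, 8 to 10 weeks old, kept on chow and fasted for 24 h before a piece of liver was collected. DKO mice carried floxed alleles of Tsc1 and Cpt2 that were deleted by Cre recombinase under the Albumin promoter. The control libraries (Control) are labelled Wt. The study's methods describe its controls as littermates with both genes floxed, and whether those littermates carried Cre is not given in the sources used here. The Albumin promoter directs Cre to hepatocytes, and recombination in the other cells of the liver piece was not measured here. The 4 Tsc1 L-/- libraries and the 4 Cpt2 L-/- libraries, which carry the single deletions on the same background and after the same fast, entered the fit and were used to place the DKO values.

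Tsc1 is a subunit of the tuberous sclerosis complex, which switches off Rheb and thereby holds back the growth kinase complex mTorc1. Without Tsc1, mTorc1 stays active in a fasted cell, and protein synthesis, nucleotide synthesis and lipid synthesis are favored. Cpt2 sits on the inner mitochondrial membrane and releases long-chain fatty acids from carnitine so that they can enter β-oxidation. A hepatocyte without Cpt2 receives the fatty acids that fasting delivers and cannot burn them in mitochondria, so they are stored, secreted or bound by lipid-sensing receptors such as Pparα. The question asked by this comparison is what the fasted liver transcriptome looks like when both the brake on anabolism and the main catabolic route are lost in the same cells.

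RNA was sequenced from stranded mRNA libraries as single reads of 75 bases, and the authors deposited whole-number read counts for 35275 genes. Total counts were 17066401 to 18657651 in Control libraries and 14868666 to 18007139 in DKO libraries. Alb alone took 3.93% to 4.46% of the counts in Control and 1.18% to 1.55% in DKO, and genes of the mitochondrial chromosome took 3.78% to 5.04% and 5.08% to 6.41%. The 4 DKO libraries lay 47.1 to 52.8 apart as distances on log2(CPM + 0.5), the 4 Control libraries 48.0 to 62.6 apart, and a DKO and a Control library 85.3 to 105.0 apart, so that the groups did not mix. Values are given as CPM, the counts scaled to the TMM-normalized library size. Fold changes are log2 fold changes of DKO over Control with their standard error (SE). Adjusted p-values are from the quasi-likelihood test of edgeR with Benjamini-Hochberg adjustment over 13641 genes, and a gene is said to have risen or fallen where that value was under 0.05. The labels do not say that the libraries came from separate animals, so these p-values measure the spread between these libraries.

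The deleted genes were examined first. Tsc1 (chr2:28641228-28691167 in GRCm38) was at 39.5, 37.6, 37.6 and 40.4 CPM in Control and at 18.3, 15.8, 15.7 and 17.3 CPM in DKO. All 4 DKO libraries were below all 4 Control libraries, with a log2 fold change of -1.21 (SE 0.13, adjusted p = 2.11e-06). Cpt2 (chr4:107903981-107923610) was at 103, 102, 105 and 88.9 CPM in Control and at 85.4, 105, 81.9 and 119.8 CPM in DKO. These groups overlapped (log2 fold change -0.02, SE 0.14, adjusted p = 0.929). A count over a whole gene does not separate a deleted exon from the rest of the transcript, so the Cpt2 count does not check the label.

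Of the 13641 genes tested, 4972 (36.4%) differed between DKO and Control. Of these, 2638 (19.3% of those tested) rose and 2334 (17.1%) fell. A change of at least 2-fold was seen in 1920 genes (14.1%), with 850 (6.23%) higher and 1070 (7.84%) lower. The 4 DKO libraries did not overlap the 4 Control libraries for 5089 genes (37.3%), 2809 of them higher in DKO (20.6%) and 2280 lower (16.7%). The balance of rises and falls depended on the processing. By TMM, 53.1% of the calls were rises. By limma on log2(FPKM + 1), 72.2% were (3808 higher and 1464 lower). That alternative scales to the plain library total and also changes the test and the transform. With a pseudocount of 0.1 the FPKM split was 3792 higher and 1477 lower. The median of all genes was 0.017 by TMM and moved to 0.117 and 0.171 on the FPKM scales, so the log2 fold changes of the FPKM fits are to be read against that shift. With RLE size factors, which change the scaling alone, the share of calls that were rises was 49.6%.

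The 12 genes with the largest rises are described in turn, beginning with 4 that act in fatty acid binding, mitochondrial uncoupling, glycerol transport and detoxification. Fabp3, the fatty acid binding protein of heart and muscle, was at 0, 0, 0 and 0.0586 CPM in Control and at 34.6, 87.2, 17.2 and 117 CPM in DKO. As no Control library held more than 3 counts, the change is given as a bound, and Fabp3 was at least 354-fold higher in DKO (adjusted p = 2.1e-06). The DKO libraries spanned a wide range and every one lay far above Control. Ucp3, an uncoupling protein of the inner mitochondrial membrane that is otherwise typical of muscle, was at 0, 0, 0 and 0.117 CPM in Control and at 5.84, 7.78, 4.82 and 8.84 CPM in DKO, at least 37.8-fold higher (adjusted p = 4.9e-08). Aqp7, a channel for glycerol and water, was at 0.0612, 0.138, 0.104 and 0.351 CPM in Control and at 15.8, 17, 9.51 and 15.5 CPM in DKO, a log2 fold change of 6.4 (SE 0.39, adjusted p = 7.36e-09). Gsta1, a glutathione transferase, was at 0.551, 0.345, 0.936 and 2.93 CPM in Control and at 44.9, 177, 76.8 and 29.95 CPM in DKO (6.08, SE 0.79, adjusted p = 7.59e-05). The largest changes were taken from genes whose groups do not overlap, so their separation is set by the choice.

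The other 8 of the 12 largest rises had varied roles. Bex2, a small protein of the brain-expressed X-linked family, was at 0, 0.069, 0 and 0.351 CPM in Control and at 18.2, 16.5, 18.2 and 21.6 CPM in DKO, a log2 fold change of 7.38 (SE 0.55, adjusted p = 1.05e-07), a fitted value that rests on few or no counts in Control. Scd3, a stearoyl-CoA desaturase, was at least 33.1-fold higher (adjusted p = 0.000128). Its reads can be shared with the near-identical Scd1 and Scd2, so its count is uncertain. Mmp27, a matrix metalloproteinase, was at least 19.5-fold higher, Dlgap2, a scaffold protein of synapses, at least 31.9-fold higher, and D7Ertd443e at least 11.1-fold higher. Nyx, a leucine-rich repeat protein, rose by a log2 fold change of 6.93 with DKO values from 3.58 to 27.3 CPM. Ephb2, a receptor for ephrins, rose by 6.30 to values between 26 and 44.8 CPM. Adra2a, the α2A adrenergic receptor, rose by 6.18 to values between 19.4 and 60.4 CPM. Fabp3 and Ucp3 overlap genes on the opposite strand, and the strand setting of the read counting is not given in the sources used here. The overlapping partner Zcchc17 of Fabp3 averaged 14.2 CPM in Control and 12.9 CPM in DKO, and the partner Gm10603 of Ucp3 averaged 0.745 CPM in Control and 2.85 CPM in DKO, higher in the same group as Ucp3.

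The 12 genes with the largest falls are described in the same way, beginning with 4 that act in bile acid synthesis and its regulation, steroid binding in plasma and glycogen targeting. Akr1d1, the reductase that shapes the ring system of bile acids, was at 194, 196, 148 and 138 CPM in Control and at 8.73, 3.49, 3.83 and 2.98 CPM in DKO, a log2 fold change of -5.15 (SE 0.40, adjusted p = 5.66e-07). Nr0b2, the bile acid-induced corepressor known as SHP, was at 39.9, 8.97, 22.1 and 17.3 CPM in Control and at 1.85, 0.0529, 0.529 and 0.163 CPM in DKO (-5.10, SE 1.07, adjusted p = 0.00269). Serpina6, which encodes the corticosteroid-binding globulin of plasma, was at 85.5, 73.1, 243 and 161 CPM in Control and at 6.65, 4.23, 4.82 and 3.64 CPM in DKO (-4.86, SE 0.60, adjusted p = 4.6e-05). Their separation too is set by the choice of genes. Ppp1r3c, which brings protein phosphatase 1 to glycogen, fell from 20.3 to 75.7 CPM in Control to 0.705 to 3.7 CPM in DKO (-4.66, adjusted p = 0.000373).

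The other 8 of the 12 largest falls included larger ones. Fam47e was at 12.4, 6.35, 10.8 and 12.8 CPM in Control and at 0.0578, 0, 0.264 and 0 CPM in DKO, a log2 fold change of -7.05 (SE 0.58, adjusted p = 1.74e-07), a fitted value that rests on few or no counts in DKO. Slc22a7, an organic anion transporter of the basolateral membrane, fell by 6.25 on the log2 scale (adjusted p = 0.00377). Hsd3b5, a male-specific hydroxysteroid dehydrogenase, fell by 5.02 (adjusted p = 0.00201), and Sult2a7, a sulfotransferase of hydroxysteroids, by 4.71 (adjusted p = 0.000397). Both belong to families of near-identical copies, so their counts are uncertain. Atp6v0d2, the less widely expressed d subunit of the proton pump, fell by 4.63 (adjusted p = 1.45e-05). With no DKO library above 3 counts, Mmd2 was at least 25.2-fold lower, Cyp26a1, which breaks down retinoic acid, at least 15.3-fold lower, and Derl3, a factor of protein export from the endoplasmic reticulum, at least 11.8-fold lower.

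**Figure D1:**
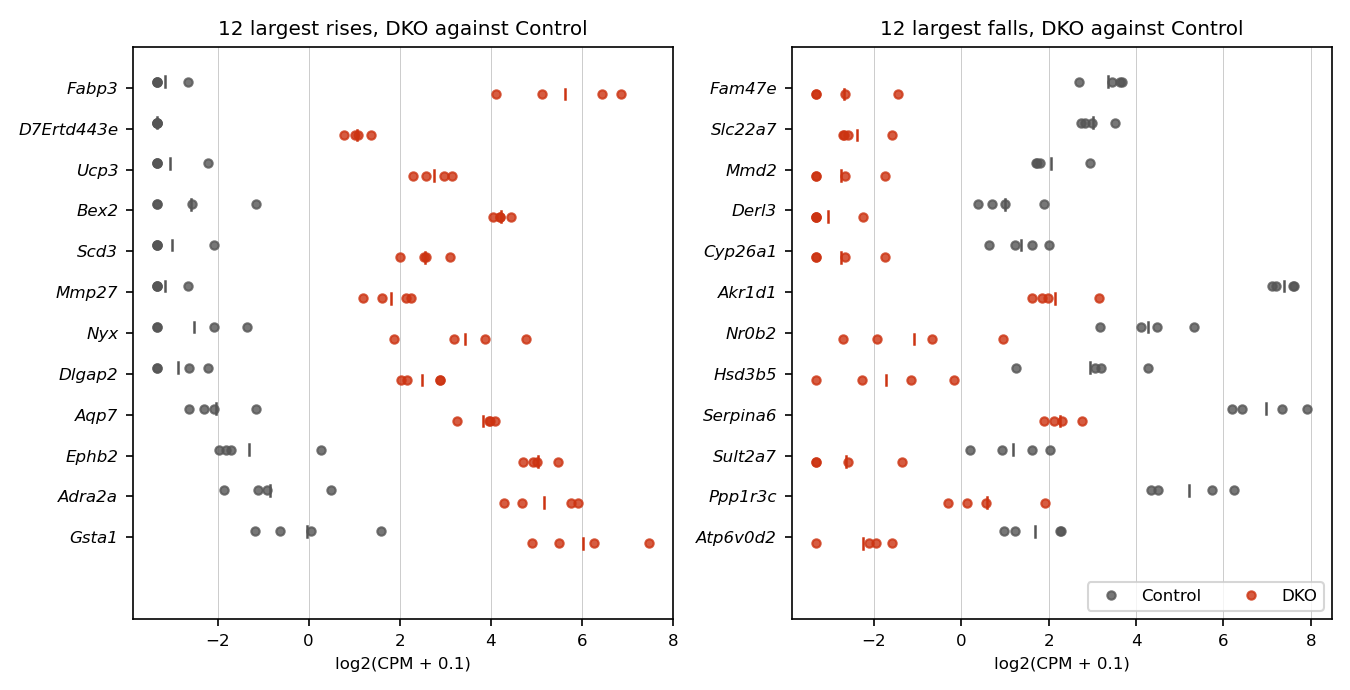
The 12 protein-coding genes with the largest rise (left) and the largest fall (right) in DKO against Control, each point 1 library on the scale log2(CPM + 0.1), with a vertical line at the mean of the 4 values of that scale in each group (Control grey, DKO red). Only genes whose groups do not overlap could be chosen, so the separation is no result. Fabp3 ran from 17.2 to 117 CPM in the 4 DKO libraries against at most 0.0586 CPM in Control.

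Genes were next grouped in 42 lists by pathway and role. In 34 of them the share of tested members that differed was larger than the 36.4% of all genes. By TMM, no member was called higher in the lists of the acute-phase response, pericentral genes and clock genes. No member was called lower by TMM in the lists of lipid droplet proteins, p53 targets, ribosomal proteins, aminoacyl-tRNA synthetases and mitochondrially encoded genes. List medians ran from -1.51 for the acute-phase response to 1.41 for the Atf4-dependent stress response, beside 0.017 for all genes. Under RLE, DESeq2 and both FPKM scalings the medians of 39 of the 42 lists kept their sign. The exceptions were peroxisomal β-oxidation and ketogenesis on the FPKM scales, and fatty acid uptake under RLE and DESeq2, all 3 with medians near 0. Members named below were marked with earlier results of these data known or had the largest called changes of their list. Where their groups did not overlap, this is largely set by the choice and is no separate result. The same holds for the genes named as farthest beyond both single deletions. Among all genes tested, 37.3% did not overlap.

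**Figure D2:**
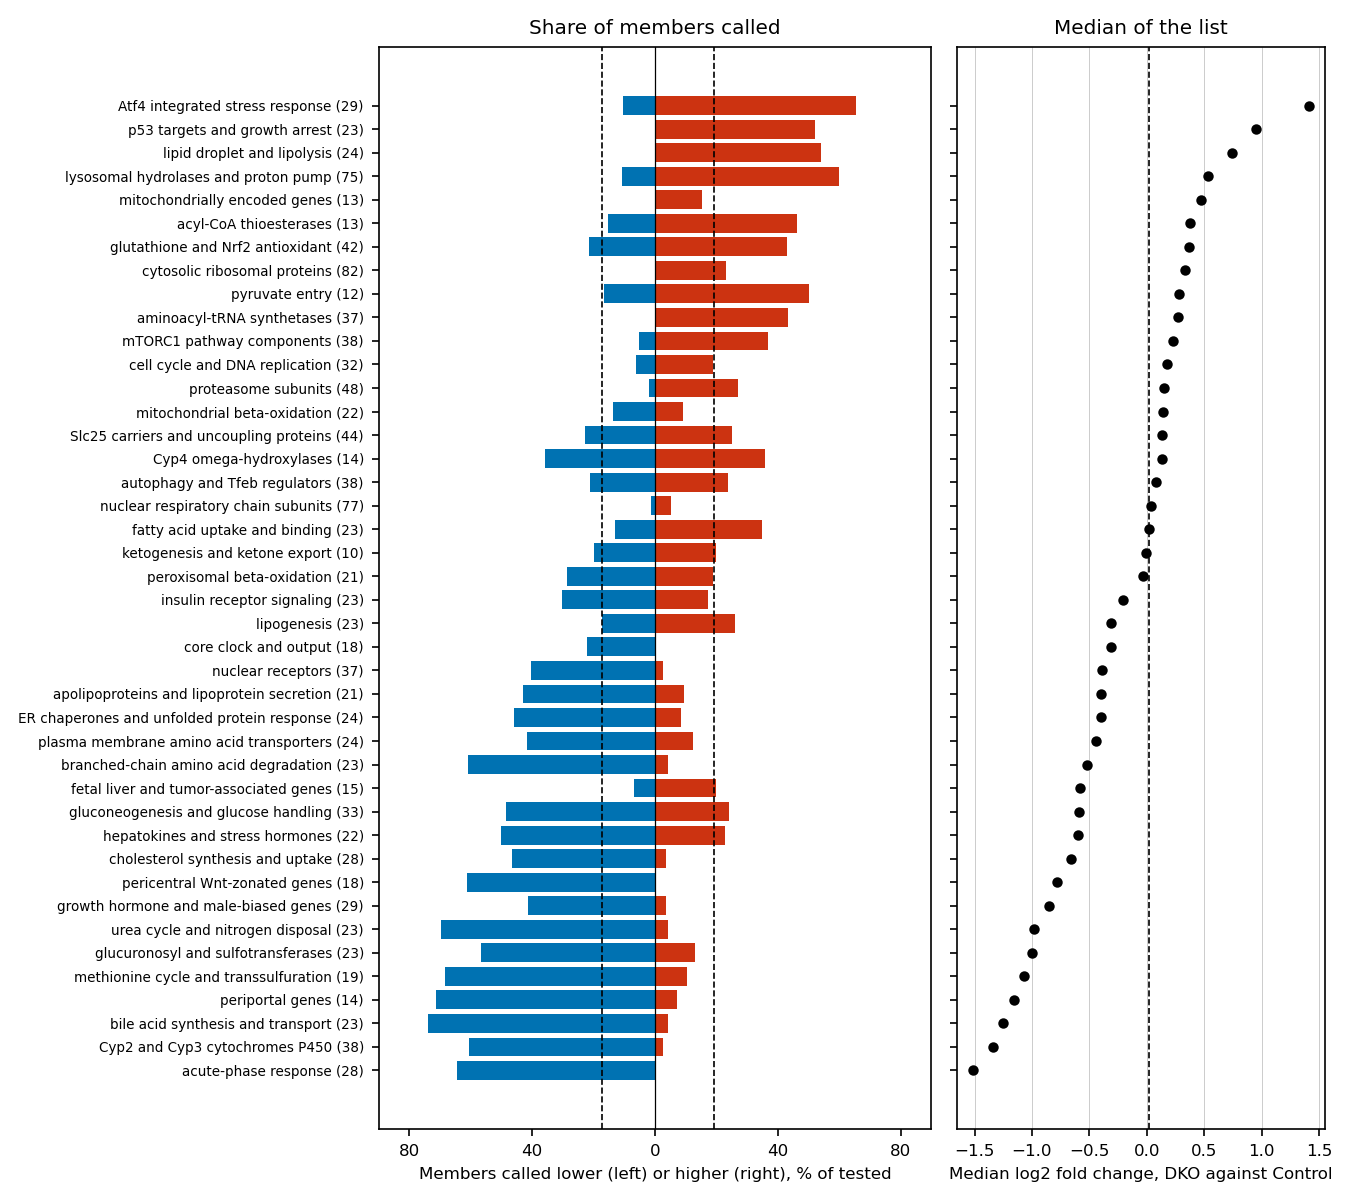
Left, the share of tested members of each of 42 gene lists called higher (red, to the right) or lower (blue, to the left) in DKO against Control, with dashed lines at the shares of all genes (19.3% higher and 17.1% lower). Right, the median log2 fold change of each list with a dashed line at the median of all genes, 0.017; the number of tested members is in brackets, and the Atf4-dependent stress response stood highest at 1.41 and the acute-phase response lowest at -1.51.

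Of 24 tested genes of lipid droplets and lipolysis, 13 rose and none fell, with a median log2 fold change of 0.74. They include genes that store fat and genes that break it down. Plin2, which coats lipid droplets in hepatocytes, was at 373, 484, 606 and 549 CPM in Control and at 2066, 2759.7, 2858 and 3864 CPM in DKO (2.52, SE 0.26, adjusted p = 1.4e-06). Cidec, which fuses droplets to larger ones, was at 32.1, 63.8, 29 and 61.1 CPM in Control and at 408, 476, 539 and 565 CPM in DKO (3.42, SE 0.56, adjusted p = 0.000376). Pnpla2, the first lipase to act on stored triglyceride, was at 181, 196, 129 and 139 CPM in Control and at 319.9, 334, 338 and 574 CPM in DKO (1.28, SE 0.24, adjusted p = 0.000508). The groups did not overlap for these 3 genes. Cidec, Plin2 and Plin4 (log2 fold change 2.63) are strongly expressed in fat cells as well, and the 6 adipocyte marker genes fixed for these libraries summed to 0.184 to 2.5 CPM in Control and 0.132 to 0.38 CPM in DKO, with no marker high enough to be tested.

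Among 23 genes of fatty acid uptake and binding, 8 rose and 3 fell (median 0.02). Beside Fabp3, Fabp4 was at 10.03, 6.97, 6.97 and 12.2 CPM in Control and at 39.2, 34.2, 33.9 and 66.9 CPM in DKO (2.27, SE 0.31, adjusted p = 5.11e-05). Fabp4 is the fatty acid binding protein of fat cells, macrophages and endothelium. Cd36, the scavenger receptor that takes up fatty acids, was at 32.8, 50.3, 132 and 92 CPM in Control and at 197, 231, 181 and 409 CPM in DKO (1.73, SE 0.47, adjusted p = 0.0117). With DKO replicates 2 and 3 against Control replicates 3 and 4 alone, Cd36 had a log2 fold change of 0.88 and was not called (adjusted p = 0.266). Slc27a5, a bile acid-CoA ligase and fatty acid transporter, fell by 0.99 on the log2 scale (adjusted p = 0.00064). With the same 4 libraries alone it was at -0.58 and was not called (adjusted p = 0.107). Of 13 acyl-CoA thioesterases, which split acyl-CoA into free acid and CoA, 6 rose and 2 fell (median 0.38). Acot2, the mitochondrial member, was at 9.6, 26.6, 38 and 34.7 CPM in Control and at 233, 382, 279 and 651 CPM in DKO (3.83, SE 0.81, adjusted p = 0.00272). Acot2 lies among near-identical copies, so the split of reads between them is uncertain. All 4 DKO values of Acot2 were above the highest Control value. With DKO replicates 2 and 3 against Control replicates 3 and 4 its change was 3.19 and was not called (adjusted p = 0.074).

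Of 22 genes of mitochondrial β-oxidation, 2 rose and 3 fell (22.7% called against 36.4% of all genes, median 0.14), and on the FPKM scales 11 rose and 2 fell. Cpt1a, which loads fatty acids onto carnitine at the outer membrane, was at 1086, 1565, 1081 and 1408 CPM in Control and at 1471, 1099.8, 1369 and 1405 CPM in DKO (0.06, SE 0.18, adjusted p = 0.836). The groups overlapped. Acaa2, the last enzyme of the cycle, was at 920, 923, 1093 and 972 CPM in Control and at 481, 586, 525 and 529.9 CPM in DKO (-0.88, SE 0.14, adjusted p = 9.84e-05). Among 21 peroxisomal genes, 4 rose and 6 fell (47.6% called, median -0.03), and on the FPKM scales 6 rose and 4 fell. Pecr, a peroxisomal reductase of fatty acid chains, was at 210, 144, 161 and 119 CPM in Control and at 34.6, 36.1, 32.7 and 29 CPM in DKO (-2.26, SE 0.27, adjusted p = 1.5e-05). Pex11a, which divides peroxisomes, rose by a log2 fold change of 1.46 (adjusted p = 1.09e-05). Of 14 Cyp4 ω-hydroxylases, 5 rose and 5 fell (median 0.13).

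Of 10 genes of ketone synthesis and export, 2 rose and 2 fell. The 2 that rose were exporters. Slc16a1, the monocarboxylate transporter Mct1, was at 45.8, 60.2, 53.4 and 58.1 CPM in Control and at 129.8, 168, 171 and 217 CPM in DKO (1.66, SE 0.16, adjusted p = 9.31e-07). Slc16a6, which exports β-hydroxybutyrate from hepatocytes, was at 2.81, 2.21, 3.74 and 4.22 CPM in Control and at 12.1, 7.78, 9.05 and 5.32 CPM in DKO (1.39, SE 0.31, adjusted p = 0.00185). The DKO values of both exporters were above all Control values. Slc16a6 overlaps Arsg and Amz2 on the opposite strand, and the strand setting of the counting is not given. Arsg averaged 40.8 CPM in Control and 98.7 CPM in DKO, and Amz2 averaged 15.9 and 22 CPM, both higher in the same group as Slc16a6. Pecr likewise overlaps D230017M19Rik, at 6.42 CPM in Control and 1.73 CPM in DKO, Igf1 overlaps Igf1os, at 2.29 and 0.852 CPM, and Bhmt overlaps Gm15622, at 4.84 and 0.929 CPM.

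Lipogenic genes did not move as a group. Of 23, 6 rose and 4 fell (median -0.31). Fasn, the fatty acid synthase, was at 57.1, 154, 73.2 and 84.1 CPM in Control and at 54.4, 45.9, 39.9 and 41.2 CPM in DKO (-1.02, SE 0.50, adjusted p = 0.128). All 4 DKO values of Fasn were below the 4 Control values, and the spread of Control was large. Elovl7, an elongase of long-chain fatty acids, was at 0.367, 1.38, 0.468 and 0.761 CPM in Control and at 44.9, 23, 31.9 and 29.7 CPM in DKO (5.47, SE 0.34, adjusted p = 1.06e-08). Acacb, the acetyl-CoA carboxylase whose malonyl-CoA inhibits Cpt1 at the mitochondrial surface, was at 59.7, 101, 37.5 and 66.8 CPM in Control and at 304, 270.2, 362 and 362 CPM in DKO (2.29, SE 0.27, adjusted p = 1.09e-05). For both, the groups were far apart. Thrsp, a nuclear activator of lipogenic genes, had a log2 fold change of -2.65 and was not called (adjusted p = 0.132). With only the Control and DKO libraries in the fit both were called lower, Fasn at -1.04 (adjusted p = 0.023) and Thrsp at -2.66 (adjusted p = 0.000339).

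Cholesterol synthesis genes fell more often than they rose. Of 28 genes, 13 fell and 1 rose (median -0.66), and on the FPKM scales 5 fell and 4 rose. The 1 that rose was Insig2, which retains the sterol sensor Scap in the endoplasmic reticulum. Insig2 was at 349, 298, 172 and 201 CPM in Control and at 618, 693, 1005 and 816 CPM in DKO (1.62, SE 0.32, adjusted p = 0.00102). Of 23 bile acid genes, 17 fell and 1 rose (median -1.25). Cyp7a1, the rate-limiting enzyme of bile acid synthesis, was at 98.5, 447, 175 and 322 CPM in Control and at 13.2, 22.5, 18.9 and 8.68 CPM in DKO (-4.04, SE 0.70, adjusted p = 0.000665). Abcb11, the pump that exports bile salts into the canaliculus, was at 313, 342, 272 and 229 CPM in Control and at 38.7, 36.6, 42.2 and 30.1 CPM in DKO (-2.97, SE 0.32, adjusted p = 6.26e-06). The 1 gene that rose was Abcc3, which exports bile acids and conjugates back to the blood, at 448, 592, 452 and 462 CPM in Control and 837, 714, 734 and 898 CPM in DKO (0.70, SE 0.15, adjusted p = 0.00118). The groups did not overlap for any of these 4 genes.

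Of 21 genes of apolipoproteins and lipoprotein secretion, 9 fell and 2 rose (median -0.40). Apoa4, an apolipoprotein of chylomicrons and HDL that is made by fasted liver, was at 1489, 3379, 1000.4 and 5037 CPM in Control and at 14281, 13084, 14164 and 12770.4 CPM in DKO (2.32, SE 0.58, adjusted p = 0.00638). The Control libraries spread widely and the DKO libraries were close to each other and above them. Angptl4, a secreted inhibitor of lipoprotein lipase, was at 236 ± 47.1 CPM (SD, n = 4) in Control and 233 ± 49 CPM in DKO (-0.02, edgeR adjusted p = 0.949).

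Genes of gluconeogenesis and glucose handling fell more often than they rose by TMM. Of 33 genes, 16 fell and 8 rose (median -0.59), and on the FPKM scales 10 fell and 10 rose. Pck1, the cytosolic phosphoenolpyruvate carboxykinase, was at 6101, 5622, 5016 and 4996 CPM in Control and at 2776, 2165, 3142 and 2462 CPM in DKO (-1.04, SE 0.17, adjusted p = 0.000104). Fbp1, the fructose bisphosphatase, averaged 1215 ± 104 CPM (SD, n = 4) in Control and was at 248, 389 and 407 CPM in 3 of the DKO libraries, with the other one also below Control (-1.71, SE 0.18, adjusted p = 1.79e-06). G6pc, which releases free glucose, was at 471, 303, 357 and 299 CPM in Control and at 96.3, 64.8, 214 and 93.9 CPM in DKO (-1.61, SE 0.31, adjusted p = 0.000938). Every DKO value of the 3 genes was below every Control value.

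The mitochondrial counterpart of Pck1 went the other way. Pck2 was at 3.85, 4.35, 2.6 and 3.45 CPM in Control and at 28.4, 41.1, 31.7 and 23.1 CPM in DKO (3.13, SE 0.34, adjusted p = 4.16e-06). Pgm1, a phosphoglucomutase, was at 7.34, 8.56, 4.89 and 7.79 CPM in Control and at 51, 42.7, 61.8 and 25.5 CPM in DKO (2.67, SE 0.28, adjusted p = 3.23e-06). Of 12 genes of pyruvate entry into mitochondria, 6 rose and 2 fell (median 0.28). Pdk4, the kinase that shuts off pyruvate dehydrogenase in fasting, was at 12.9, 20.6, 23 and 13.3 CPM in Control and at 282, 511, 691 and 1395 CPM in DKO (5.37, SE 0.52, adjusted p = 3.96e-06). The 4 DKO libraries differed widely among themselves for Pdk4, and the lowest of them was far above the highest Control value.

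Most target genes of the stress transcription factor Atf4 rose. Atf4 is translated when initiation factor eIF2 is phosphorylated, and also downstream of active mTorc1, and it drives genes for amino acid synthesis, amino acid uptake and tRNA charging. Of 29 tested genes of the Atf4-dependent integrated stress response, 19 rose and 3 fell, with a median of 1.41. Atf4 itself was at 75.3, 73.8, 73.4 and 78.7 CPM in Control and at 105, 156, 148 and 175 CPM in DKO (0.95, SE 0.17, adjusted p = 0.00025). Psat1 (chr19:15904678-15947337), an enzyme of serine synthesis, was at 0.184, 0.414, 0.416 and 1.7 CPM in Control and at 43.2, 52.1, 52.3 and 34.6 CPM in DKO (6.04, SE 0.70, adjusted p = 2.2e-05). Neither gene overlapped between the groups.

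Short stretches of promoter are shown for some genes that rose and hold the letters that C/EBP and ATF factors are known to bind. The letters searched were TGATGNAA on both strands in the 250 bases before and 50 bases after each RefSeq start site (GRCm38.p6). They occur in 3.97% of 32851 promoters and in at least 1 promoter of 4.51% of 27025 genes. Of the 25 tested members of the list with a promoter in the RefSeq table, 7 (28.0%) held them, among them Chac1 and Slc7a11, which were not called (adjusted p = 0.0738 and 0.176). Both were called with the replicate number as a block (0.0394 and 0.0265), and Chac1 also with only the Control and DKO libraries in the fit (0.00487), by DESeq2 (0.0401) and on log2(FPKM + 0.1) (0.0445). Most genes of the list that have a promoter there do not hold these letters in this window. Of 26 aminoacyl-tRNA synthetase genes, 5 (19.2%) held them. A match is a description of the sequence and not evidence of binding. The Atf4 list was written from genes already known as Atf4 targets, so its larger share is no result of these data. In the lines that follow, each sequence is written 5′ to 3′ on the strand of the gene, and capitals mark the match on either strand, so that some appear as its reverse complement.
Asns chr6:7693214-7693243, minus strand: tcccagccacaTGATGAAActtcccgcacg
Nupr1 chr7:126625562-126625591, minus strand: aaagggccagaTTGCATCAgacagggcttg
Atf3 chr1:191183410-191183469, minus strand: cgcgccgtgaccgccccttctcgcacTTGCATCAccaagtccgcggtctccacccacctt
Gars chr6:55037945-55038000, plus strand: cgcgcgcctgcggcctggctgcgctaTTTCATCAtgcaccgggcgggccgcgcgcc
Pck2 chr14:55540137-55540196, plus strand: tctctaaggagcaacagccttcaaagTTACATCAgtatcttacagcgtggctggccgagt
Fgf21 chr7:45615596-45615655, minus strand: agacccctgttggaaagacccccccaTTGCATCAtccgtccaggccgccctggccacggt
Fabp3 chr4:130308676-130308705, plus strand: gtgtgggccacTTTCATCAtgtgatgcgag

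The first base of the match lay 23 bases before the RefSeq start site in Asns, 30 in Gars, 51 in Fabp3, 103 in Pck2, 110 in both Atf3 and Nupr1, and 139 in Fgf21. In GENCODE M21 the stretches of Gars and Fgf21 lay outside annotated genes. Those of Asns, Nupr1 and Fabp3 lay in an exon of another transcript of the same gene, that of Fabp3 also in an exon of Gm10570 on the opposite strand, that of Atf3 in an intron, and that of Pck2 within a gene on the opposite strand. Gars, Pck2, Fgf21 and Fabp3 were not on the Atf4 list, and all 7 genes shown were picked among genes that rose. The letters also occur in promoters of genes that fell, among them G6pc, Echs1, Cyp3a11 and Idi1.

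Each of these genes was higher in all 4 DKO libraries than in all 4 Control libraries. Asns, the asparagine synthetase, was at 7.34, 7.38, 1.09 and 3.86 CPM in Control and at 25.9, 20.5, 35.3 and 20.02 CPM in DKO (2.39, SE 0.69, adjusted p = 0.0162). Nupr1, a small stress-induced nuclear protein, was at 0.856, 0.69, 1.61 and 0.644 CPM in Control and at 39.8, 16, 42.6 and 24.3 CPM in DKO (4.97, SE 0.75, adjusted p = 0.00023). Atf3, a stress-induced transcription factor, was at 0.428, 2.14, 1.2 and 1.64 CPM in Control and at 10.9, 17.8, 19 and 60.2 CPM in DKO (4.33, SE 0.75, adjusted p = 0.000654). DKO replicate 4 was the highest of the group for Atf3 by a wide margin.

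Other members of the list concerned folate-linked one-carbon units and amino acid uptake. Mthfd2, the mitochondrial folate dehydrogenase, was at 1.65, 0.759, 0.988 and 1.17 CPM in Control and at 14.6, 23.3, 23.1 and 13.9 CPM in DKO (4.02, SE 0.38, adjusted p = 1.02e-06). Aldh1l2, which acts in the same mitochondrial folate pathway, rose by a log2 fold change of 3.23 (adjusted p = 0.000777). Slc3a2, the heavy chain of several amino acid exchangers, was at 35, 41.2, 34.4 and 43.9 CPM in Control and at 163, 251, 260.4 and 191 CPM in DKO (2.49, SE 0.26, adjusted p = 3.45e-06). Eif4ebp1, a translation repressor that mTorc1 phosphorylates and Atf4 induces, was at 59.7, 54.3, 46.5 and 52.5 CPM in Control and at 173, 226, 215 and 176 CPM in DKO (1.89, SE 0.17, adjusted p = 2.92e-07). The largest fall on the list was in Cth, which makes cysteine from cystathionine, at 676, 686, 362 and 292 CPM in Control and 67.9, 73.6, 74.1 and 51.8 CPM in DKO (-2.91, SE 0.37, adjusted p = 3.42e-05).

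**Figure D3:**
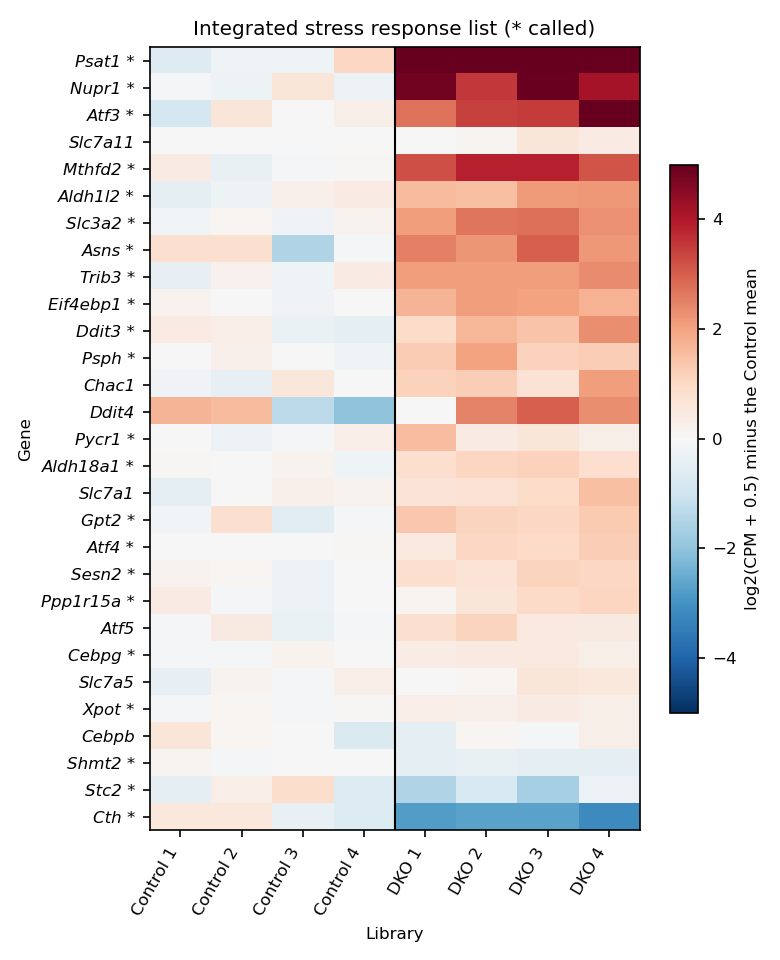
Heat map of the 29 tested members of the Atf4-dependent list (rows, asterisks mark called genes) in the 8 libraries (columns), colored by log2(CPM + 0.5) minus the mean of the 4 Control libraries, red higher and blue lower, with the color scale ending at 5 on either side. Psat1, Nupr1, Atf3 and Mthfd2 were high in every DKO library, and Cth was low in every DKO library.

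Of 37 aminoacyl-tRNA synthetases, 16 rose and none fell (median 0.27). The enzymes of the cytosol accounted for 13 of these 16, among 20 tested (median 0.57), and those of mitochondria for 3 among 17 (median 0.10), a split by symbol made after the values were seen. Gars, which charges glycine, was at 43.2, 58.4, 39.9 and 52.9 CPM in Control and at 111, 141, 132 and 112 CPM in DKO (1.35, SE 0.18, adjusted p = 1.56e-05). Sars, which charges serine, was at 68.9, 72.2, 60.4 and 77.3 CPM in Control and at 159.7, 206, 196 and 149.6 CPM in DKO (1.35, SE 0.17, adjusted p = 7.74e-06). The chaperones of the endoplasmic reticulum and the genes of the unfolded protein response fell more often than they rose, with 11 of 24 lower and 2 higher (median -0.40). The number lower was 15 by DESeq2 and 7 on log2(FPKM + 0.1). Hspa5, the chaperone BiP, was at 813, 1117, 582 and 729 CPM in Control and at 666, 658, 620.2 and 561 CPM in DKO, and the groups overlapped (-0.37, SE 0.22, adjusted p = 0.199). Calr, the chaperone calreticulin, fell by 0.90 on the log2 scale (adjusted p = 0.0015).

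Liver-derived hormones split. Of 22, 11 fell and 5 rose (median -0.60). Fgf21, a fasting hormone that acts on fat and brain, was at 4.47, 12.3, 8.32 and 10.8 CPM in Control and at 55.4, 119, 62.5 and 138 CPM in DKO (3.39, SE 0.71, adjusted p = 0.00257). Gdf15, which signals to the hindbrain, was at 9.24, 9.94, 2.65 and 4.39 CPM in Control and at 22.8, 39.8, 53.4 and 65.9 CPM in DKO (2.81, SE 0.51, adjusted p = 0.000916). Gpnmb (chr6:49036518-49058182), a glycoprotein of lysosomal and cell membranes that can be shed, was at 1.47, 1.73, 2.6 and 1.11 CPM in Control and at 101, 135, 78.4 and 71.1 CPM in DKO (5.79, SE 0.42, adjusted p = 2.87e-07). Igf1, the growth factor made by liver under growth hormone, was at 558, 496, 511 and 438 CPM in Control and at 242, 237, 344 and 156 CPM in DKO (-1.03, SE 0.18, adjusted p = 0.000246). The DKO values lay apart from the Control values for all 4.

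Most genes of nitrogen disposal fell. Of 23 genes of the urea cycle and nitrogen disposal, 16 fell and 1 rose (median -0.98). Sds, which deaminates serine to pyruvate, was at 274, 139.7, 59.7 and 55 CPM in Control and at 7.57, 3.07, 10.8 and 5.91 CPM in DKO (-4.28, SE 0.68, adjusted p = 0.000346). Gls2, the liver glutaminase, was at 382, 244, 210.3 and 131 CPM in Control and at 49.2, 40.4, 63.5 and 48.8 CPM in DKO (-2.26, SE 0.27, adjusted p = 1.24e-05). The groups did not overlap for either gene. Sds overlaps Gm15690 on the opposite strand, which averaged 7.56 CPM in Control and 0.53 CPM in DKO. Otc, the ornithine transcarbamylase of the urea cycle, did not pass the test (-0.37, adjusted p = 0.0572), and passed it with only the Control and DKO libraries in the fit (0.0116), by DESeq2 (0.0308) and with RLE size factors (0.0452).

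Of 19 genes of the methionine cycle and transsulfuration, 13 fell and 2 rose (median -1.07). Bhmt, which remethylates homocysteine with betaine, was at 4114, 7268, 1901 and 4112 CPM in Control and at 1146, 239, 717 and 268 CPM in DKO (-2.88, SE 0.61, adjusted p = 0.0025). Cbs, which joins homocysteine and serine, was at 386, 406, 334 and 262 CPM in Control and at 93.2, 90.9, 98 and 103 CPM in DKO (-1.85, SE 0.19, adjusted p = 1.46e-06). Both were lower in every DKO library. Of 23 genes of branched-chain amino acid degradation, 14 fell and 1 rose (median -0.52), and on the FPKM scales 8 fell and 2 rose. Dbt, the core of the branched-chain ketoacid dehydrogenase, was at 104, 95.6, 102 and 81.5 CPM in Control and at 50.5, 43.4, 45.5 and 47.9 CPM in DKO (-1.03, SE 0.12, adjusted p = 4.38e-06). Of 24 amino acid transporters of the plasma membrane, 10 fell and 3 rose (median -0.44), Slc3a2 among those that rose.

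Antioxidant genes moved in both directions, and p53 targets were higher where they were called by TMM. Of 42 genes of glutathione metabolism and the Nrf2 response, 18 rose and 9 fell (median 0.37). Srxn1, the sulfiredoxin that repairs oxidized peroxiredoxin, was at 70.4, 93.4, 56.1 and 89.9 CPM in Control and at 335, 522, 642 and 512 CPM in DKO (2.70, SE 0.35, adjusted p = 3.54e-05). Cbr3, a carbonyl reductase, was at 1.22, 1.04, 0.572 and 1.11 CPM in Control and at 5.72, 16.9, 10.2 and 4.77 CPM in DKO (3.26, SE 0.42, adjusted p = 1.8e-05). Hmox1, which degrades heme, was at 19.6, 15.9, 10.3 and 13.2 CPM in Control and at 30.3, 46.9, 38.5 and 51.2 CPM in DKO (1.5, SE 0.26, adjusted p = 0.000313). No DKO value of the 3 fell among the Control values. Nqo1, a quinone reductase of the same response, was not called (0.62, adjusted p = 0.0645). It was called with only the Control and DKO libraries in the fit (0.00924), on log2(FPKM + 0.1) and log2(FPKM + 1) (0.0158 and 0.0137) and with the replicate number as a block (0.0374). Gstt3, a glutathione transferase, fell by 1.97 on the log2 scale (adjusted p = 0.000125).

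Of 23 targets of p53, 12 rose and none fell (median 0.95). With RLE size factors 11 rose and 1 fell, and by DESeq2 12 rose and 1 fell. Eda2r, a death receptor of the TNF receptor family, was at 1.1, 1.1, 0.624 and 0.703 CPM in Control and at 5.38, 6.19, 7.33 and 3.42 CPM in DKO (2.66, SE 0.40, adjusted p = 6.31e-05). Tnfrsf10b, another death receptor of that family, rose by a log2 fold change of 2.5 (adjusted p = 0.000269). Bax, which permeabilizes mitochondria in apoptosis, rose by 1.30 (adjusted p = 3.54e-05). Of 32 genes of the cell cycle and DNA replication, 6 rose and 2 fell, 25.0% called against 36.4% of all genes. Mcm2, a subunit of the replication helicase, rose by 2.20 (adjusted p = 5.43e-05). Mki67, a marker of dividing cells, had a log2 fold change of -0.89 and was not called (adjusted p = 0.0531, and 0.0476 with RLE size factors).

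Components of the mTorc1 pathway rose in part. Of 38 tested, 14 rose and 2 fell (median 0.23), Tsc1 being 1 of those that fell. Rragd (chr4:32983037-33022180), a Rag GTPase that carries mTorc1 to the lysosome, was at 1.9, 1.31, 2.03 and 2.58 CPM in Control and at 70.1, 67.9, 72.9 and 56.9 CPM in DKO (5.08, SE 0.30, adjusted p = 1.06e-08). Mtor, the kinase itself, was at 73, 98.7, 72.3 and 91.5 CPM in Control and at 206, 187, 236 and 231 CPM in DKO (1.36, SE 0.15, adjusted p = 3.01e-06). The groups did not overlap for either gene. Tsc2, the partner of Tsc1, had a log2 fold change of 0.08 and was not called (adjusted p = 0.652). Of 23 genes of insulin receptor signaling, 7 fell and 4 rose (median -0.21). On the FPKM scales 3 of these fell and 4 rose.

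The lysosome is where mTorc1 is activated and where the transcription factor Tfeb, which mTorc1 keeps out of the nucleus, has its targets. Of 75 tested lysosomal genes, 45 rose and 8 fell (70.7% called, median 0.53). Subunits of the proton pump and its accessory proteins rose in 15 of 17 cases (median 0.80), and Atp6v0d2 alone fell. Cathepsins rose in 5 of 12 and fell in 4, and the other lysosomal genes rose in 25 of 46 and fell in 3. This split was made after the values were seen. Ctsl, a cysteine protease, was at 901, 1059.5, 455 and 822 CPM in Control and at 3654, 3940, 5244 and 3885 CPM in DKO (2.37, SE 0.34, adjusted p = 4.93e-05). Cd63, a tetraspanin of late endosomes and exosomes, was at 6.67, 8.69, 7.12 and 12.1 CPM in Control and at 154, 179.7, 114 and 111 CPM in DKO (4.01, SE 0.47, adjusted p = 2.18e-05). Cd68, a lysosomal membrane protein used as a macrophage marker, was at 9.97, 8.69, 6.4 and 9.37 CPM in Control and at 102, 127, 115 and 35.1 CPM in DKO (3.46, SE 0.35, adjusted p = 4.31e-06). The groups were apart for all 3, with DKO replicate 4 the lowest DKO library for Cd68.

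Other lysosomal genes rose less or fell. Lamp1, a main protein of the lysosomal membrane, was at 619, 711, 577 and 579 CPM in Control and at 804, 974, 806 and 879.6 CPM in DKO (0.48, SE 0.13, adjusted p = 0.00838). Ctsd, an aspartic protease, was at 456, 507, 377 and 436 CPM in Control and at 563, 671, 585 and 606 CPM in DKO (0.45, SE 0.12, adjusted p = 0.0066). Mcoln1, a calcium channel of the lysosome, rose by a log2 fold change of 0.63 (adjusted p = 0.00514). Ctsc, a cysteine protease that activates other proteases, fell by 1.28 on the log2 scale (adjusted p = 0.000169), and Ctsh, another cysteine protease, by 0.84 (adjusted p = 1.45e-05). On the FPKM scales 52 of the 75 genes were called higher and 4 lower. Gpnmb, Cd68 and Cd63 are also known from macrophages. Of 9 tested markers of lipid-associated macrophages, Gpnmb, Cd9 and Lgals3 rose, none fell and 6 were not called (median 0.01), and the 10 markers summed to 37.2 to 48.9 CPM in Control and 120.5 to 243.0 CPM in DKO, with none at 0 in either group and Gpnmb alone at 71.1 to 135 CPM in DKO. Of 11 tested Kupffer cell markers 10 fell, among them Clec4f, a lectin of resident macrophages, at 103, 91.6, 70.8 and 88.9 CPM in Control and 59.1, 39.2, 46.3 and 41.1 CPM in DKO (-0.93, SE 0.19, adjusted p = 0.00111). In bulk tissue a change in the number of cells of a type and a change in RNA per cell cannot be told apart, and the part of macrophages in the rise of these genes was not tested.

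A pair of promoter stretches shows the CLEAR element, TCACGTGA, which Tfeb is known to bind and which reads the same on both strands. It occurs in 0.974% of the 32851 promoters, in at least 1 promoter of 1.12% of the 27025 genes, and in 9 of 56 lysosomal genes with a promoter in the RefSeq table (16.1%). Lysosomal genes are known targets of Tfeb and the list was written from general knowledge, so this larger share is no result of these data. Ctsd and Mcoln1 are shown as a hydrolase and a membrane channel that hold it, with the element in capitals, on the strand of the gene, in GRCm38.p6.
Ctsd chr7:142387908-142387937, minus strand: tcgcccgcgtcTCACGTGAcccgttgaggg
Mcoln1 chr8:3500462-3500491, plus strand: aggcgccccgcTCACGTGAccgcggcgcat

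The element began 99 bases before the RefSeq start site of Ctsd and 46 bases before that of Mcoln1, in both cases within an exon of a GENCODE transcript of the same gene. The genes with the largest rises, Gpnmb, Cd63, Cd68 and Ctsl, were not among the 9.

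**Figure D4:**
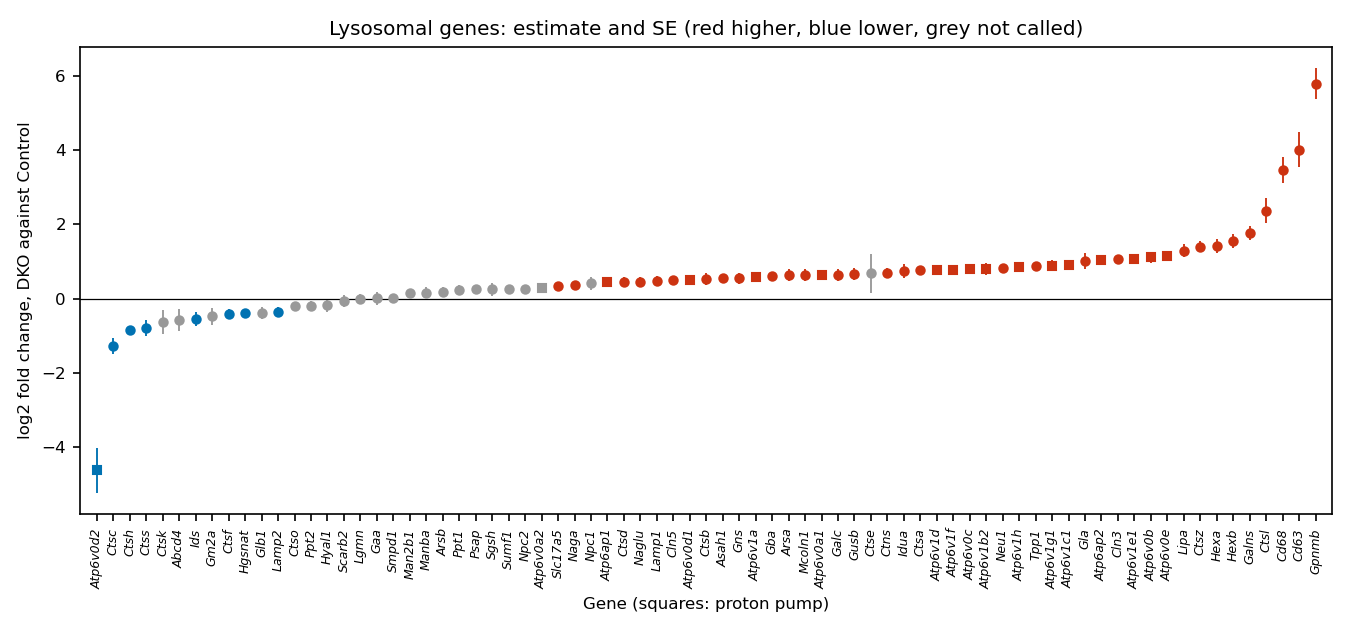
The log2 fold change of DKO against Control with its SE for the 75 tested lysosomal genes in rising order (squares for subunits of the proton pump and its accessory proteins, circles for the others; red higher, blue lower, grey not called). Red points outnumber blue points, 45 against 8, with Gpnmb, Cd63, Cd68 and Ctsl at 2.37 or more and Atp6v0d2 at -4.63.

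Autophagy genes and Tfeb regulators did not lean one way, with 9 of 38 higher and 8 lower (median 0.08), and on the FPKM scales 15 higher and 4 lower. Sqstm1, the autophagy receptor p62, was at 589, 745, 511 and 657 CPM in Control and at 1238, 1720.2, 2127 and 1727 CPM in DKO (1.45, SE 0.26, adjusted p = 0.00041). Tfeb had a log2 fold change of -0.34 and was not called (adjusted p = 0.209). Of 82 cytosolic ribosomal protein genes, 19 rose and none fell, 23.2% called and thus below the 36.4% of all genes, with a median of 0.33. On the FPKM scales 53 were called higher. Rpl12 had the largest change, from 149, 146, 131 and 153 CPM in Control to 271, 343, 243 and 289 CPM in DKO (0.99, SE 0.18, adjusted p = 0.000398). Ribosomal protein genes have many processed pseudogenes, which can take part of the reads. Of 48 proteasome genes, 13 rose and 1 fell (29.2% called against 36.4% of all genes, median 0.15), and 25 rose on the FPKM scales. Psmd8, a subunit of the regulatory lid, was at 124, 159, 111 and 173 CPM in Control and at 411, 544, 491 and 425 CPM in DKO (1.72, SE 0.18, adjusted p = 1.98e-06).

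The nuclear-encoded respiratory chain had the smallest share of called members among the 42 lists. Of 77 nuclear-encoded subunits, 4 rose and 1 fell (6.49% called, median 0.04), and 15 rose on the FPKM scales. Of 13 mitochondrially encoded genes, 2 rose (median 0.47), and 8 rose on the FPKM scales. Of 44 carriers of the inner membrane, 11 rose and 10 fell (median 0.13), and on log2(FPKM + 1) 19 rose and 7 fell. Ucp2, an uncoupling protein related to Ucp3, averaged 56.8 ± 15 CPM (SD, n = 4) in Control and 243 ± 18.6 CPM in DKO (2.10, SE 0.19, adjusted p = 3.39e-07). Slc25a4, the muscle form of the ADP/ATP carrier, was at 5.75, 7.87, 9.62 and 6.38 CPM in Control and at 41.2, 32.1, 28.9 and 45.3 CPM in DKO (2.31, SE 0.32, adjusted p = 4.17e-05). Both rose without overlap. Slc25a15, the ornithine carrier of the urea cycle, fell by 1.66 on the log2 scale (adjusted p = 9.41e-05).

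Most genes of drug and steroid metabolism fell. Of 38 cytochromes P450 of families Cyp2 and Cyp3, 23 fell and 1 rose (median -1.34). The Cyp2c genes fell in 8 of 12 cases, the Cyp2d genes in 5 of 6 and the Cyp3a genes in 4 of 4, and within these clusters reads can be shared between near-identical copies. Cyp2e1, the ethanol-inducible enzyme of pericentral hepatocytes, was at 12802, 12858, 13470.3 and 13395 CPM in Control and at 5297, 4827, 5438 and 6068 CPM in DKO (-1.28, SE 0.19, adjusted p = 4.13e-05). The 1 that rose, Cyp2b10, a target of the xenobiotic receptor CAR, was at 7.22, 9.87, 1.35 and 3.98 CPM in Control and at 29.1, 54.3, 42.2 and 68 CPM in DKO (3.13, SE 0.63, adjusted p = 0.00187). Of 23 glucuronosyl and sulfotransferases, 13 fell and 3 rose (median -1.0). Sult1a1, a sulfotransferase of phenols, was at 368, 311, 214 and 304 CPM in Control and at 48, 23.5, 32.2 and 18.6 CPM in DKO (-3.29, SE 0.33, adjusted p = 3.45e-06).

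Of 37 nuclear receptors, 15 fell and 1 rose (median -0.39), and 10 fell on the FPKM scales. Ppara, the lipid-sensing receptor of fasting, had a log2 fold change of -0.09 and was not called (adjusted p = 0.725). Of 29 male-biased and growth hormone-dependent genes, 12 fell and 1 rose (median -0.85). Ghr, the growth hormone receptor, was at 355, 381, 459.9 and 396 CPM in Control and at 206, 217, 206 and 170.1 CPM in DKO (-0.99, SE 0.19, adjusted p = 0.000677). Of 18 clock genes, 4 fell and none rose (median -0.31), 22.2% called against 36.4% of all genes. By RLE 6 fell and by DESeq2 7, and on the FPKM scales 2 fell and 1 rose.

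More genes of both liver zones fell than rose. Of 18 pericentral genes, 11 fell and none rose (median -0.78), and 8 fell on the FPKM scales. Lgr5, a Wnt receptor component of hepatocytes around the central vein, was at 5.57, 6.56, 7.54 and 12.4 CPM in Control and at 0.809, 1.27, 0.33 and 0.271 CPM in DKO (-3.55, SE 0.45, adjusted p = 1.08e-05). Oat, the ornithine aminotransferase of that zone, was at 1294, 1785, 1415 and 1615 CPM in Control and at 381, 150, 259 and 223 CPM in DKO (-2.59, SE 0.30, adjusted p = 6.85e-06). Of 14 periportal genes, 10 fell and 1 rose (median -1.16). Hal, the histidase of the periportal zone, was at 793, 435, 265 and 243 CPM in Control and at 85.4, 35.8, 82.8 and 72.7 CPM in DKO (-2.65, SE 0.53, adjusted p = 0.00169). No DKO value of the 3 genes reached the Control range.

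Most genes of acute-phase plasma proteins fell. Of 28 acute-phase genes, 18 fell and none rose (median -1.51). Hp, the hemoglobin scavenger haptoglobin, was at 4344, 3679.8, 3203 and 3004 CPM in Control and at 473, 419, 660.3 and 330.4 CPM in DKO (-2.92, SE 0.31, adjusted p = 2.42e-06). Fgg, a chain of fibrinogen, was at 1851, 1599, 1651 and 1569 CPM in Control and at 448, 138, 162 and 63.2 CPM in DKO (-3.04, SE 0.49, adjusted p = 0.000309). Alb, the most abundant plasma protein and not on the acute-phase list, was at 44302, 49138, 43262 and 40270.1 CPM in Control and at 11897, 13278, 15194 and 11108 CPM in DKO (-1.78, SE 0.26, adjusted p = 5.28e-05). The DKO libraries lay below Control throughout. The summed level of the hepatocyte markers moved with these lists, at 74043 to 93832 CPM in Control and 34488 to 41219 CPM in DKO, with 6 of 9 tested markers lower, none higher and none at 0. Alb is among these markers and took 40270.1 to 49138 CPM of the sum in Control and 11108 to 15194 CPM in DKO. Apob and Cyp3a11 are also on lists given above, so the sum is not separate from those lists. The part of the marker shift in the falls of hepatocyte genes was not tested.

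Genes typical of fetal liver or tumors were called higher about as often as all genes. Of 15 tested, 3 rose (20% against 19.3% of all genes) and 1 fell (median -0.58). Ly6d, a small surface protein, was at 1.04, 2, 0.832 and 3.75 CPM in Control and at 86.4, 96.8, 72.7 and 63.3 CPM in DKO (5.39, SE 0.59, adjusted p = 1.58e-05). Igf2bp3, a fetal RNA-binding protein, was at 0.979, 0.207, 0.312 and 0.117 CPM in Control and at 8.61, 5.66, 10.2 and 11.6 CPM in DKO (4.46, SE 0.62, adjusted p = 4.67e-05). Afp, the fetal counterpart of albumin, was at 1.96, 1.52, 1.46 and 1.35 CPM in Control and at 6.18, 6.83, 4.49 and 1.74 CPM in DKO (1.61, SE 0.35, adjusted p = 0.00167). Ly6d and Igf2bp3 were apart between the groups, whereas DKO replicate 4 lay within the Control range for Afp.

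Apart from the lipid-associated macrophage list, no marker list of another cell type had a member called higher. Of 11 tested markers of stellate cells and fibroblasts 10 fell, with sums of 295 to 421 CPM in Control and 179 to 220.2 CPM in DKO. Of 10 endothelial markers 5 fell, with sums of 597 to 672 CPM and 332 to 564 CPM. The sums of cholangiocyte markers were 34.1 to 50.2 CPM and 34.6 to 42.3 CPM and overlapped. Red blood cell genes summed to 343 to 794 CPM in Control and 122 to 846 CPM in DKO, and no member was called.

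The DKO livers were then set beside each single deletion to show where the combined loss went further. DKO differed from Cpt2 L-/- livers for 2494 genes (18.3%), 1484 higher and 1010 lower, and from Tsc1 L-/- livers for 4392 genes (32.2%), 2312 higher and 2080 lower. The count against Cpt2 L-/- depended on single libraries. It was 1546 without Cpt2 L-/- replicate 3 and 1428 without DKO replicate 2, and the genes called lower numbered 600 without Cpt2 L-/- replicate 4. These comparisons share the DKO libraries, and each comparison's own values are given. DKO lay above both single deletions, with each difference called, for 413 genes (3.03%) and below both for 319 (2.34%). When every one of the 24 libraries entered the fit, these counts were 146 and 122, and the count against Cpt2 L-/- was 1065. The 413 became 261 without Cpt2 L-/- replicate 3 and 234 without DKO replicate 2. The 319 became 212 without Cpt2 L-/- replicate 4 and 158 without DKO replicate 2.

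Among the gene lists, 16 of 75 lysosomal genes, 10 of 82 ribosomal protein genes, 6 of 29 genes of the Atf4-dependent response and 5 of 37 aminoacyl-tRNA synthetases lay above both single deletions, beside 3.03% of all genes. Against Cpt2 L-/- alone, 37 of the 75 lysosomal genes were higher in DKO and 2 lower (10.9% of all genes were higher and 7.4% lower), and against Tsc1 L-/- 23 were higher and 12 lower (16.9% and 15.2% of all genes). Of the lipid droplet and lipolysis genes, 1 of 24 was higher and 2 were lower against Cpt2 L-/-, and 16 were higher and 1 lower against Tsc1 L-/-. Of the bile acid genes, none of 23 were higher and 2 lower against Cpt2 L-/-, and 1 was higher and 16 lower against Tsc1 L-/-. Below both single deletions lay 6 of 23 genes of nitrogen disposal, 6 of 28 acute-phase genes and 5 of 14 periportal genes, beside 2.34% of all genes. The members of these lists were not counted again without DKO replicate 2, the library that moved both totals most.

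The 8 genes farthest above both single deletions included an inhibitor of proteases, a fatty acid binding protein and a detoxifying enzyme. Slpi, an inhibitor of leukocyte proteases, was at 82.6, 30.1, 21.5 and 90.4 CPM in DKO, at 9.44, 5.94, 2.71 and 3.35 CPM in Tsc1 L-/- and at 1.35, 3.11, 1.01 and 0.447 CPM in Cpt2 L-/- livers (adjusted p = 0.000831 and 0.000327 by edgeR). Fabp3 was at 17.2 to 117 CPM in DKO, at 4.25 to 8.53 CPM in Cpt2 L-/- (adjusted p = 0.000968) and at 0 to 0.322 CPM in Tsc1 L-/- livers (adjusted p = 4.01e-06). Bex2 was at 16.5 to 21.6 CPM in DKO, at 1.42 to 4.35 CPM in Tsc1 L-/- (adjusted p = 3.61e-05) and at 0.237 to 0.838 CPM in Cpt2 L-/- livers (adjusted p = 2.52e-06). None of these 3 overlapped with either single deletion. Gsta1, Scd3, Mmp27 and Tmem45b were likewise above both, the last a membrane protein at 3.58 to 11.4 CPM in DKO and at most 1.97 CPM in any library of the single deletions.

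On the low side, Fam47e was at 0 to 0.264 CPM in DKO, at 2.63 to 3.54 CPM in Tsc1 L-/- (adjusted p = 5.59e-06) and at 0.391 to 1.84 CPM in Cpt2 L-/- livers (adjusted p = 0.00122). Sucnr1, the succinate receptor, was at 0.217 to 0.794 CPM in DKO, at 2.03 to 6.96 CPM in Tsc1 L-/- (adjusted p = 0.00116) and at 1.3 to 4.09 CPM in Cpt2 L-/- livers (adjusted p = 0.0106). Sds was at 3.07 to 10.8 CPM in DKO, at 99.7 to 286 CPM in Tsc1 L-/- (adjusted p = 0.000207) and at 17.5 to 63.5 CPM in Cpt2 L-/- livers (adjusted p = 0.0152). The DKO values of the 3 genes did not overlap those of either single deletion, although the adjusted p of Sds against Cpt2 L-/- was 0.0512 without DKO replicate 2.

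The other 5 of the 8 lowest genes lost a call when 1 library was left out. For Cyp17a1, a steroid hydroxylase, the adjusted p against Cpt2 L-/- was 0.0602 without DKO replicate 1 and 0.0676 without DKO replicate 2. Its call against Control was lost without Control replicate 2 (0.0722) and without DKO replicates 1 (0.0592) and 2 (0.0622), and with the replicate number as a block (0.0621). For Mmd2, the adjusted p against Cpt2 L-/- was 0.067 and 0.155 without Cpt2 L-/- replicates 2 and 4, and 0.0882, 0.119 and 0.0947 without DKO replicates 1, 2 and 4. For Cyp26a1 it was 0.0526 and 0.133 without Cpt2 L-/- replicates 2 and 3, and 0.0711, 0.107 and 0.08 without DKO replicates 1, 2 and 4. For Eps8l1, an adaptor of the actin skeleton, the adjusted p against Tsc1 L-/- was 0.112 without Tsc1 L-/- replicate 2, and 0.0624, 0.0604 and 0.0685 without DKO replicates 1, 3 and 4. Col4a5, a collagen chain of basement membranes, lost a call without any 1 library other than DKO replicate 4 and Tsc1 L-/- replicates 2, 3 and 4, and its adjusted p against Tsc1 L-/- was 0.625 without Tsc1 L-/- replicate 1.

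**Figure D5:**
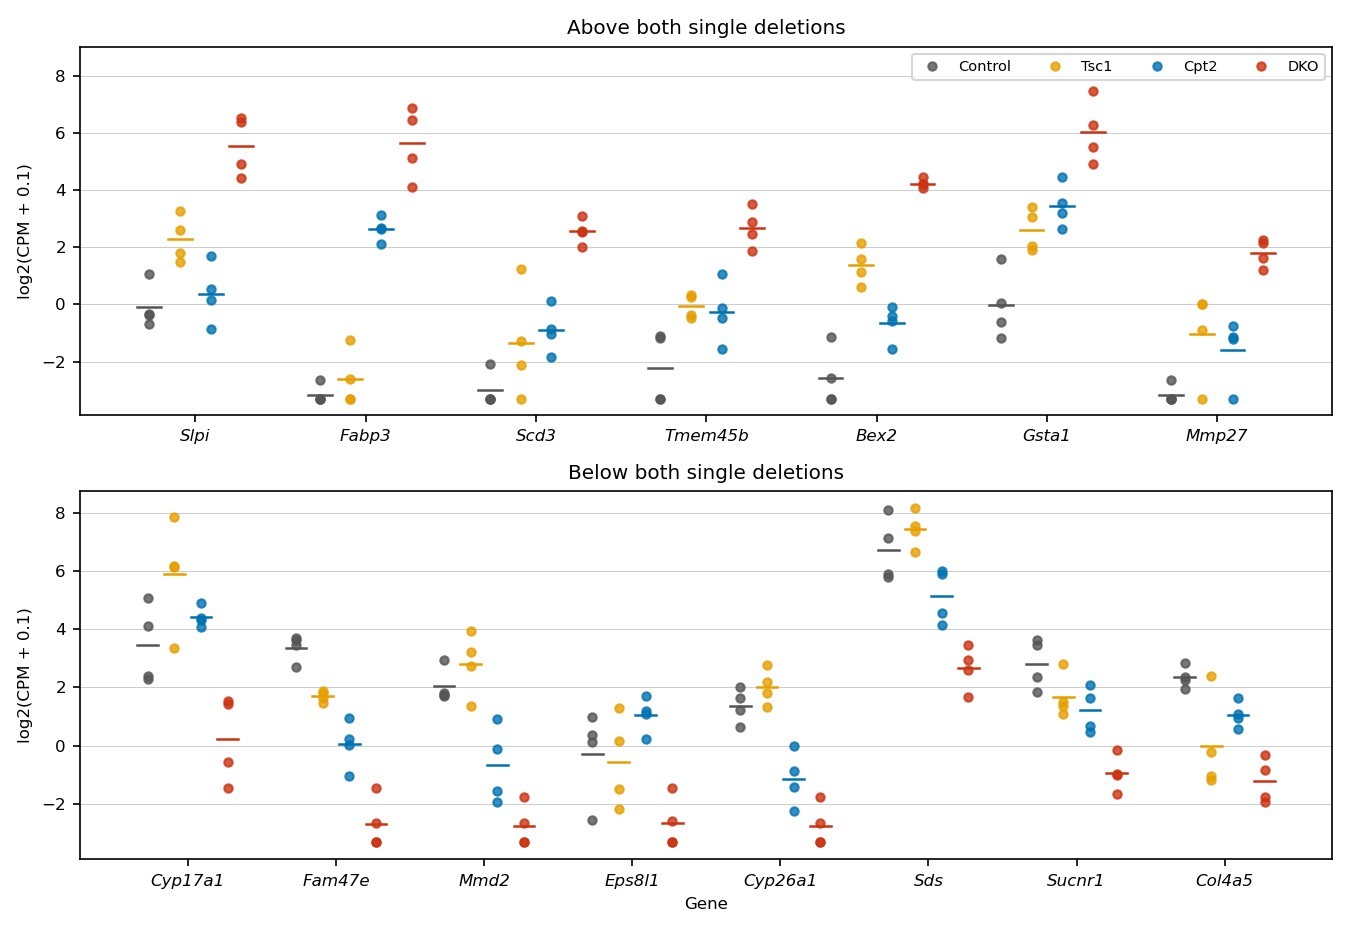
Values of 7 of the 8 genes highest (top) and of the 8 lowest (bottom) in DKO relative to both single deletions, on the scale log2(CPM + 0.1), 1 point for each of 16 libraries and a line at the mean of the 4 values of each group. The DKO libraries (red) of Slpi, Fabp3 and Bex2 lie above all libraries of the other 3 groups, and those of Fam47e and Sds below all of them.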

How the data were processed

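The gene table was made by the authors from single-end reads. The submitters' processing notes name Bowtie 0.12.2, TopHat, STAR 2.5, STAR-Fusion, HTSeq 0.6.1, DESeq2 and edgeR, and the builds mm8 and mm9, without saying which made this table. Its coordinates match GRCm38. The authors deposited raw counts per gene, which were used for the main tests, and FPKM, which equalled the counts scaled by gene length and library total and were used for alternatives.

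Counts of all 4 genotypes (16 libraries, 4 of each) entered a single fit in edgeR 4.0.16 (R 4.3.3) with TMM normalization, filterByExpr (minimum count 10, minimum total 15) and the robust quasi-likelihood test, two-sided, with Benjamini-Hochberg adjustment and a threshold of 0.05. The filter kept 13641 of 35275 genes. Totals in DKO and Control were 14868666 counts or more, and the spread between replicates was far above counting error. Chi-square per degree of freedom between replicate libraries was 24.07 to 48.29 in DKO and 33.82 to 75.46 in Control, where counting error alone would give about 1. In simulated counts for 13395 genes, 96 were changed between DKO and Control by 1 on the log2 scale and 99 by 2, with rises and falls in balance. Of these, 64.6% and 82.8% were recovered, with 5 false calls among 149. The data themselves had 36.4% of genes called and a shift in library composition that was not simulated. These rates therefore do not carry over to this comparison. Where no library of a group exceeded 3 counts, a fold change is a bound computed at 3 counts in each library, and covers counting error only.

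Named genes were Tsc1 and Cpt2, the 12 largest rises and 12 largest falls among called protein-coding genes that did not overlap and reached 2 CPM, marked genes and the 3 largest changes in either direction of each list, and the 8 genes highest and 8 lowest beyond both single deletions. Slc27a5, Thrsp, Calr and the other list members given by 1 value come from the same lists. The genes, the 42 lists and the 12 marker lists were chosen with earlier results of these data known. Promoters and their start sites are from RefSeq (GRCm38.p6), and transcripts from GENCODE M21. A PPAR response element was searched in the same promoters. It was held by 0 of 19 genes of mitochondrial β-oxidation and 0 of 15 peroxisomal genes, beside 0.451% of all genes. Alternatives were RLE size factors, DESeq2 1.42.0, limma 3.58.1 on log2(FPKM + 1) and log2(FPKM + 0.1), no filter, all 24 libraries in the fit, only the groups compared, a replicate block, a subset of libraries, and each library left out in turn. Figures were drawn with matplotlib 3.10.9. Values of some genes that the rule names are not reported here.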

Additional observations from a re-analysis of the deposited data

Results flagged for a closer look

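A library that stood far from the other 3 of its group was looked for in 134 named genes and both groups, and 12 groups held one; chance alone gives about 1 in 20. In DKO replicate 4 the highest value of the group stood apart for Pnpla2 (574 CPM), Fabp4 (66.9 CPM) and Atf3 (60.2 CPM). DKO replicate 1 stood apart for Akr1d1 (8.73 CPM, highest) and Ctsh (133 CPM, lowest), and DKO replicate 2 for Ppara (172 CPM, lowest). In Control, replicate 4 was highest for Ephb2 (1.11 CPM) and Psat1 (1.7 CPM) and lowest for Angptl4 (166 CPM). Control replicate 1 was highest for Mmd2 (7.65 CPM), replicate 2 for Abcc3 (592 CPM) and replicate 3 for Slpi (1.98 CPM).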

How the results depend on the processing

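No named gene that was called changed sign under any alternative, and 4 that were not called did, Cpt2, Angptl4, Cpt1a and Ppara. With DKO replicates 2 and 3 against Control replicates 3 and 4, 3072 genes differed (1654 higher, 1418 lower), and 12 named genes lost their call (adjusted p = 0.05 to 0.393). The log2 fold change shrank for Cyp17a1 (-3.30 to -1.78), Cd36 (1.73 to 0.88) and Slc27a5 (-0.99 to -0.58) and less or not at all for Slc22a7 (-6.25 to -6.81), Eps8l1, Slc16a6, Acot2, Apoa4, G6pc, Fgf21, Bhmt and Calr. With all 24 libraries in the fit, 1725 genes were higher against Control, 1065 differed from Cpt2 L-/- (652 higher, 413 lower), 1479 were higher against Tsc1 L-/-, and 146 lay above and 122 below both single deletions. On log2(FPKM + 1), 1464 genes were lower against Control and 611 against Cpt2 L-/-, and 647 lay above and 158 below both single deletions. On log2(FPKM + 0.1), 1477 were lower against Control, 595 against Cpt2 L-/- and 180 below both. The cause of these shifts was not tested. Leaving out 1 library gave 4121 to 4597 genes against Control (2225 to 2479 higher, 1880 to 2180 lower), 1428 to 2498 against Cpt2 L-/- (501 to 1080 lower), 3708 to 4238 against Tsc1 L-/-, and 234 to 424 above and 158 to 339 below both single deletions. In these fits the counts of list members called higher or lower moved past a set limit in 75 cases and stayed within it in 597. To look for pairing, each library's deviations from its own group mean of log2 CPM were correlated between DKO and Control libraries. Same-numbered libraries gave -0.0511, -0.0725, -0.261 and -0.207, and libraries with other numbers gave up to 0.132. Deviations cancel within a group by construction, so these values do not decide whether the replicate numbers pair the samples. With the replicate number as a block 4781 genes differed from Control, 2333 from Cpt2 L-/- and 4180 from Tsc1 L-/-. Depth limits genes near 3 counts: changes are given as bounds where no library of a group exceeded 3 counts, and as fitted values otherwise, as for Fam47e and Bex2.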
